A study of Homo sapiens with 6 samples.

Results

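The globin genes encode the protein chains of hemoglobin, the oxygen carrier of red cells. The rows of the deposited expression table with the symbols HBZ, HBM, HBA2, HBA1, HBQ1, HBE1, HBG2, HBG1, HBD and HBB were taken, 10 of 56595 symbols, of which 5 are alpha-like and 5 are beta-like. No globin symbol stood on several rows. The table holds RNA-seq of cells grown from H1, an established human embryonic stem cell line, and taken at day 8 of differentiation toward blood, in 2 WT libraries and 4 libraries labelled as MSX2 knockout (MSX2-/-). MSX2 is a homeobox transcription factor, and the series asks what its loss changes in the early blood and endothelial cells made from H1. The 4 MSX2-/- libraries are 2 replicates of each of the clones 1# and 2#, which were picked as small colonies after a lentivirus had brought in Cas9 and a guide to exon 2. WT cells were unedited H1. The labels name no drug for any group. The paper names sorted CD31+ cells for all groups and the labels name them for MSX2-/- only. The growth text in the labels also mentions HAND1 overexpression, which no sample label assigns to a library. The labels give replicate 1 of every group the letter F and replicate 2 the letter S, without saying what the letters stand for. The libraries of 1 number are therefore compared with each other as well as pooled. The study speaks of independent experiments for its analyses in general, but in a number other than that of these replicates, and no label says whether they were separate cultures. P-values may therefore measure only the spread between these libraries, which may be technical.

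As background, hemoglobin is made of alpha-like and beta-like chains in equal number. The alpha-like genes lie on chromosome 16 and the beta-like genes on chromosome 11, each cluster in the order in which its genes are used in development, and each under a distant enhancer region. The first red cells of the yolk sac use zeta (HBZ) and epsilon (HBE1) chains, the fetus uses gamma chains (HBG1 and HBG2), and after birth beta (HBB) and some delta (HBD) take over. Blood cells made from pluripotent stem cells in culture are known to use mainly the embryonic and fetal genes.

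MSX2 itself had 3.64 and 1.44 FPKM in WT replicates 1 and 2, 18.0 and 5.62 FPKM in clone 1#, and 31.8 and 6.69 FPKM in clone 2#. FPKM is the number of fragments scaled to transcript length and to all mapped fragments, a level per length. All 4 libraries labelled MSX2-/- were thus above both WT libraries in MSX2 mRNA (log2 difference 1.99 ± 0.69 SE, limma adjusted p = 0.309, and 0.0107 once the replicate number was blocked). A level of mRNA does not show a small edit in the coding sequence, so MSX2 does not check the labels here, and every direction given for MSX2-/- rests on the labels. The table gives no read numbers. From genes under 0.1 FPKM, whose values are worth a few reads, library depth relative to WT replicate 1 was 1.02 to 1.18 in the other libraries. PECAM1, the gene of CD31, had 186 to 258 FPKM in all 6 libraries, and the erythroid genes AHSP, SLC4A1, HEMGN and EPB42 were at 0 to 0.512 FPKM. PTPRC, the gene of the pan-blood marker CD45, was at 0 to 0.115 FPKM. The other listed red cell markers, KLF1 and ALAS2, were at 7.48 to 84.8 FPKM. The samples thus had a high level of the sorting marker, and of the 6 red cell markers 4 were at or near 0 and 2 were not.

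The summed level of the 10 globins was 107 and 80.1 FPKM in WT replicates 1 and 2, 301 and 96.2 FPKM in clone 1#, and 447 and 93.7 FPKM in clone 2#. Both MSX2-/- libraries of replicate 1 stood far above the rest, while those of replicate 2 lay between the WT libraries. All globins together made up 0.0136 to 0.0751% of the summed FPKM of all genes. In bulk RNA, fewer cells of a type and less RNA per cell cannot be told apart.

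**Figure D1:**
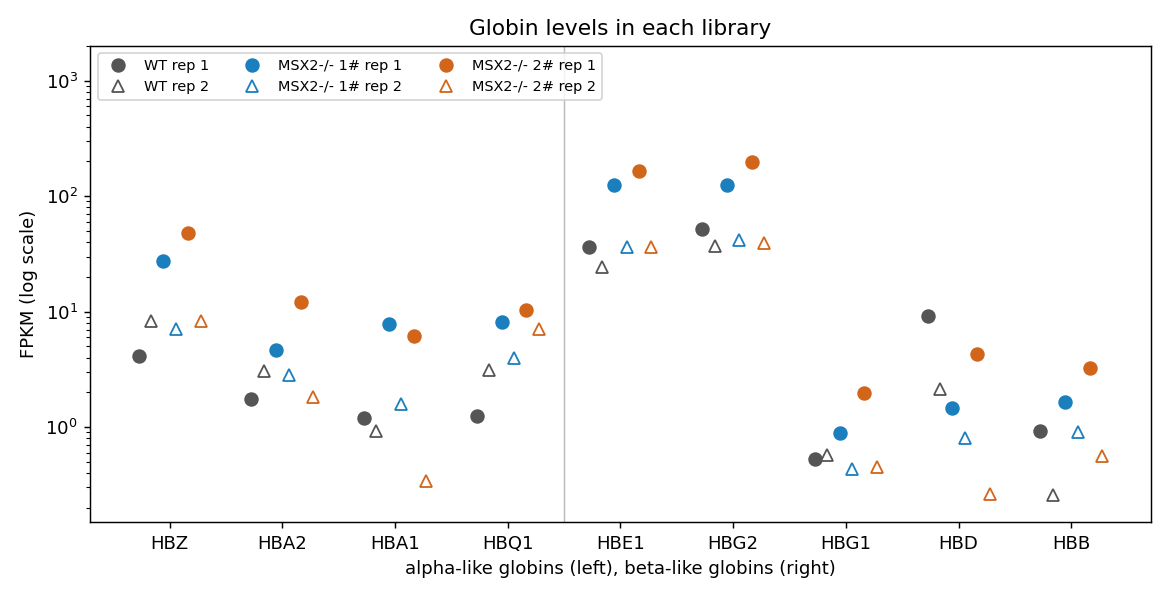
FPKM of the 9 globins with a value above 0 (log axis), 1 point per library, in WT (grey), clone 1# (blue) and clone 2# (orange), filled circles for replicate 1 and open triangles for replicate 2. The filled blue and orange points stand above the filled grey point for every globin except HBD, and for HBE1 and HBG2 they reach 124 to 197 FPKM.

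Among the alpha-like genes, HBZ, the embryonic zeta gene (chromosome 16, 152687 to 154503, plus strand, GRCh38), was the highest in each library. It had 4.11 and 8.32 FPKM in WT replicates 1 and 2, 27.3 and 7.13 FPKM in clone 1#, and 48.3 and 8.27 FPKM in clone 2#. In replicate 1, both MSX2-/- libraries were at least 6.64-fold above WT. In replicate 2, both were slightly below it, at 0.857 and 0.994 of the WT level. The WT libraries themselves differed 2.02-fold, with replicate 2 the higher.

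HBA2 and HBA1, the fetal and adult alpha genes (172876 to 173710 and 176680 to 177522), have coding sequences that are identical over all 429 bases in the GENCODE v29 annotation. How reads are divided between them is uncertain, so their sum is the safer value. HBA1 plus HBA2 had 2.94 and 3.98 FPKM in WT, 12.4 and 4.42 FPKM in clone 1#, and 18.4 and 2.17 FPKM in clone 2#. The replicate 1 libraries of MSX2-/- were again the highest, at 4.22- and 6.24-fold of WT, and the replicate 2 libraries fell on either side of WT, at 1.11- and 0.545-fold. HBA1 took 15.9 to 62.7% of that sum, with no order by group.

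HBQ1, the theta gene (180453 to 181181), whose chain is not known to have a major part in hemoglobin, had 1.24 and 3.12 FPKM in WT, 8.20 and 3.997 FPKM in clone 1#, and 10.3 and 7.13 FPKM in clone 2#. It was the 1 globin with every MSX2-/- library above both WT libraries, a pattern that 12.1% of the 15895 genes tested had. Genes were tested where they averaged 0.5 FPKM or more over the libraries, which 9 of the 10 globins passed. HBM, the mu gene (165978 to 166768), was listed at 0 in all 6 libraries and was not tested.

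Of the beta-like genes, HBE1, the embryonic epsilon gene (chromosome 11, 5268352 to 5269945, minus strand), had 36.6 and 24.4 FPKM in WT, 125 and 36.5 FPKM in clone 1#, and 164 and 35.9 FPKM in clone 2#. Each MSX2-/- library was above the WT library of its own number, by 3.41- and 4.48-fold in replicate 1 and by 1.49- and 1.47-fold in replicate 2. The 2 replicate 2 values of MSX2-/- nonetheless sat at the level of WT replicate 1, so the pooled groups overlapped. By level, HBE1 ranked between 546 and 3943 among all rows of the table.

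HBG2, a fetal gamma gene (5253190 to 5254811), had 51.7 and 37.3 FPKM in WT, 124 and 42.0 FPKM in clone 1#, and 197 and 39.0 FPKM in clone 2#. In replicate 1 it was 2.40- and 3.81-fold above WT. In replicate 2 the ratios were 1.13 and 1.04, so that HBG2, unlike HBE1 at nearly 1.5, was close to its WT level there. HBG1, the other gamma gene (5248079 to 5249859), was listed at 0.435 to 1.98 FPKM in all libraries, which was 0.712 to 1.51% of the 2 gamma genes together.

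The gamma genes differ at 2 of 444 coding bases, C227T and C410G, given as the HBG1 base, the position counted from the A of the start codon, and the HBG2 base. The window around the former position is shown in all beta-like genes because it marks which of their reads can be told apart. Bases that differ from HBG2 are in capitals (GENCODE v29 transcripts on GRCh38, coding positions 197 to 257, 5′ to 3′).
HBE1: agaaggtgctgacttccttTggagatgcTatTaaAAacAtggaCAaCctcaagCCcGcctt
HBG2: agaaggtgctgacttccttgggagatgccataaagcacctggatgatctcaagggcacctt
HBG1: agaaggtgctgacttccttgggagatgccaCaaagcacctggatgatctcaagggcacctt
HBD: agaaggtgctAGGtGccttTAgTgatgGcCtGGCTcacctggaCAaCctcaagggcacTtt
HBB: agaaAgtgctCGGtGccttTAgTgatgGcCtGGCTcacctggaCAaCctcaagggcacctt
The window around the other position (380 to 440) is shown for the gamma genes alone, with that base in capitals.
HBG1: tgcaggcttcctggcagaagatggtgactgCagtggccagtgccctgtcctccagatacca
HBG2: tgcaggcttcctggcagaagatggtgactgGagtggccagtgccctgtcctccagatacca
In the window shown in all beta-like genes, HBG1 differs from HBG2 at 1 of 61 bases, HBE1 at 12, and HBD and HBB at 17 each. Over the coding sequence, 78.5% of the 50-base stretches of HBG2 also occur in HBG1, and 1 of 395 occurs in HBE1. Epsilon and gamma can thus nearly always be told apart by such a stretch, and the gamma genes often cannot. Annotated transcripts of HBM and HBZP1, both listed at 0, hold 81.1% of the 50-base stretches of HBZ, and those of AC104389.4 and AC104389.5, not analysed here, overlap HBE1 and the gamma genes. HBG1 plus HBG2 had 52.2 and 37.9 FPKM in WT, 125 and 42.4 FPKM in clone 1#, and 199 and 39.4 FPKM in clone 2#, the pattern of HBG2 alone.

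HBD, the delta gene of minor adult hemoglobin (5232838 to 5234483), went the other way. It had 9.23 and 2.13 FPKM in WT, 1.47 and 0.810 FPKM in clone 1#, and 4.31 and 0.263 FPKM in clone 2#. Each MSX2-/- library was below the WT library of its number, at 0.159 and 0.467 of it in replicate 1 and 0.380 and 0.124 in replicate 2. HBB, the adult beta gene (5225464 to 5227071), had 0.925 and 0.258 FPKM in WT, 1.65 and 0.910 FPKM in clone 1#, and 3.24 and 0.565 FPKM in clone 2#. It was above the WT library of its number in each case, 1.79- to 3.52-fold, at levels that stayed under 4 FPKM. HBD and HBB, 92.8% identical in coding sequence, thus lay on opposite sides of WT, and 10 of their 395 coding stretches of 50 bases are shared.

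Ordered by the median over the 6 libraries, the levels per length were HBG2 (46.8 FPKM), HBE1 (36.5), HBZ (8.29), HBQ1 (5.56), HBA2 (2.95), HBD (1.80), HBA1 (1.39), HBB (0.917), HBG1 (0.551) and HBM (0). Neighbours in this order overlapped in their ranges over libraries, apart from HBM, which was at 0, although within each library HBG2 and HBE1 were above all other globins. HBG2 was above HBE1 in 5 of 6 libraries and the 2 were level in clone 1# replicate 1, at 124 and 125 FPKM. The embryonic and fetal genes HBE1, HBZ, HBG1 and HBG2 together held 86.6 to 92.1% of the globin signal in every library.

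Pooled over replicate numbers, no globin passed the test between MSX2-/- and WT. With limma on log2(FPKM + 1) and an adjusted p under 0.05, 0 of the 9 globins tested were called, and 1.28% of all genes tested were (204 of 15895). At an unadjusted p under 0.05, 1 globin was found, HBQ1. On that log2 scale the estimates were 1.41 ± 0.38 SE for HBQ1 (adjusted p = 0.195), 1.38 ± 0.77 for HBZ (0.587), 1.24 ± 0.68 for HBE1 (0.577), 0.85 ± 0.68 for HBG2 (0.752) and -1.27 ± 0.67 for HBD (0.555). HBA1, HBA2, HBB and HBG1 had estimates of 0.26 to 0.90. Of 9 estimates, 8 were above 0, with a median of 0.85 against 0.01 over all genes tested, but for all of them except HBQ1 the libraries of the groups overlapped. With the replicate number as a block, which 9.85% of all genes passed, still 0 of 9 globins were called, although 5 had an unadjusted p under 0.05. HBE1 was the nearest, with the same estimate, an SE of 0.30 and an adjusted p of 0.0536, followed by HBD (0.0679) and HBQ1 (0.0714). With a pseudocount of 0.1 in place of 1, HBE1 passed in the blocked fit, at an adjusted p of 0.0492.

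**Figure D2:**
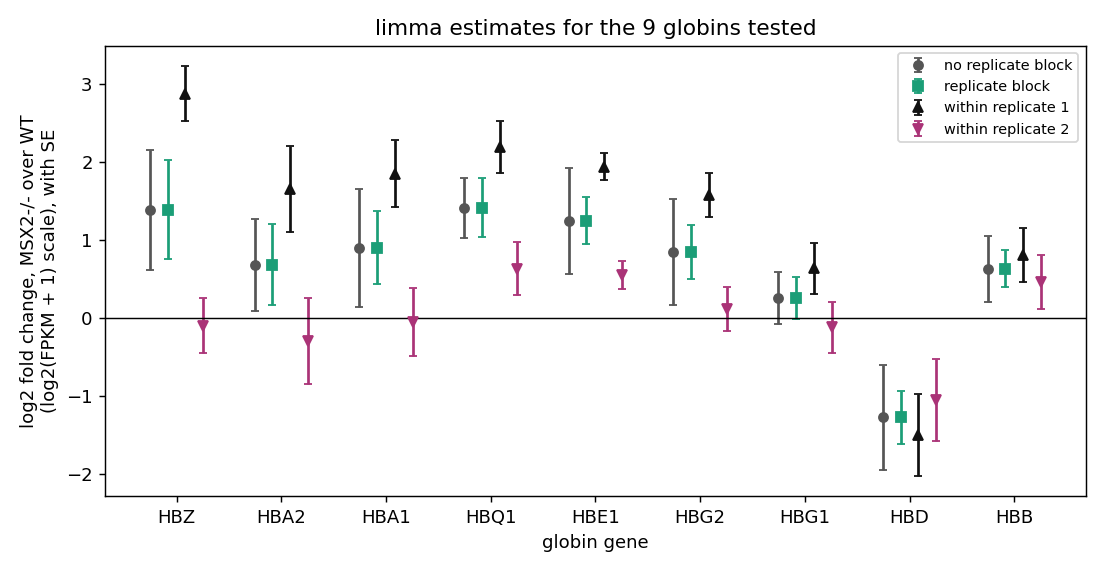
Log2 fold change of MSX2-/- over WT for each of the 9 globins tested, on the log2(FPKM + 1) scale with its SE, in 4 limma estimates: without a replicate block, with it, and within each replicate number. The estimates within replicate 1 run from 0.63 to 2.87 for 8 globins and lie at -1.50 for HBD, while within replicate 2 all but HBD (-1.05) lie between -0.30 and 0.63.

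The replicate numbers carried much of this spread. Within replicate 1, the MSX2-/- libraries of both clones were above WT for 8 of the 9 globins, where 40.2% of all genes showed this, and at least 2-fold above for 6 (HBZ, HBA2, HBA1, HBQ1, HBE1 and HBG2), where 7.41% of all genes did. Within replicate 2 they were above WT for 4 (HBQ1, HBE1, HBG2 and HBB) against 40.1% of all genes, and at least 2-fold above for HBB alone, against 5.76%. HBQ1, HBE1, HBG2 and HBB were above the WT library of their number in all 4 MSX2-/- libraries, which 23.6% of all genes were. HBD was below it in all 4, which 21.4% of all genes were.

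A fit with the interaction of group and replicate number assumes that the lone WT library of a number varies like the MSX2-/- libraries. From it, 3 of 9 globins were called higher within replicate 1, against 4.53% of all genes called in either direction. These calls rest on 1 WT library and on the spread between libraries of different clones. They were HBZ (log2 difference 2.87, adjusted p = 0.0301), HBE1 (1.94, 0.0187) and HBQ1 (2.19, 0.0475). HBG2 had 1.58 at an adjusted p of 0.0618. Within replicate 2, 0 of 9 were called, against 4.17% of all genes, and 1 had an unadjusted p under 0.05, HBE1 (0.55, adjusted p = 0.165). The difference between the 2 effects was called for 0 of 9 globins, against 0.0189% of all genes (3 of 15895). It was -2.97 for HBZ (adjusted p = 0.314), -1.39 for HBE1 (0.319) and -1.46 for HBG2 (0.378), and 5 of 9 had an unadjusted p under 0.05. That the effect is larger in replicate 1 is therefore not shown by the test.

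With the group as a term, replicate 2 was lower than replicate 1 for 5 of the 9 globins, against 34.6% of all genes called in either direction. These were HBE1 (log2 difference -1.49, adjusted p = 0.011), HBG2 (-1.44, 0.0185), HBD (-1.41, 0.0186), HBB (-0.84, 0.0314) and HBA1 (-1.46, 0.0464). None of the 9 was higher. In WT, HBE1 and HBG2 of replicate 2 stood at 0.668 and 0.722 of replicate 1, and in MSX2-/- at 0.198 to 0.338. Without clone 2# replicate 2 the count was 1 (HBE1), and it was 2 to 4 when another library was left out. HBE1 was called in each of these fits, but with no filter on low values 0 of 9 globins were.

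The clones did not differ detectably in any globin. Between 2# and 1#, 0 of 9 globins were called, as were 0 of 15895 genes (0%), and no globin had an unadjusted p under 0.05 with or without the block. The log2 difference of 2# over 1# was 0.18 ± 0.85 SE for HBE1 and 0.49 ± 0.95 for HBZ, standard errors at which a change of several fold would not have been detected.

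**Figure D3:**
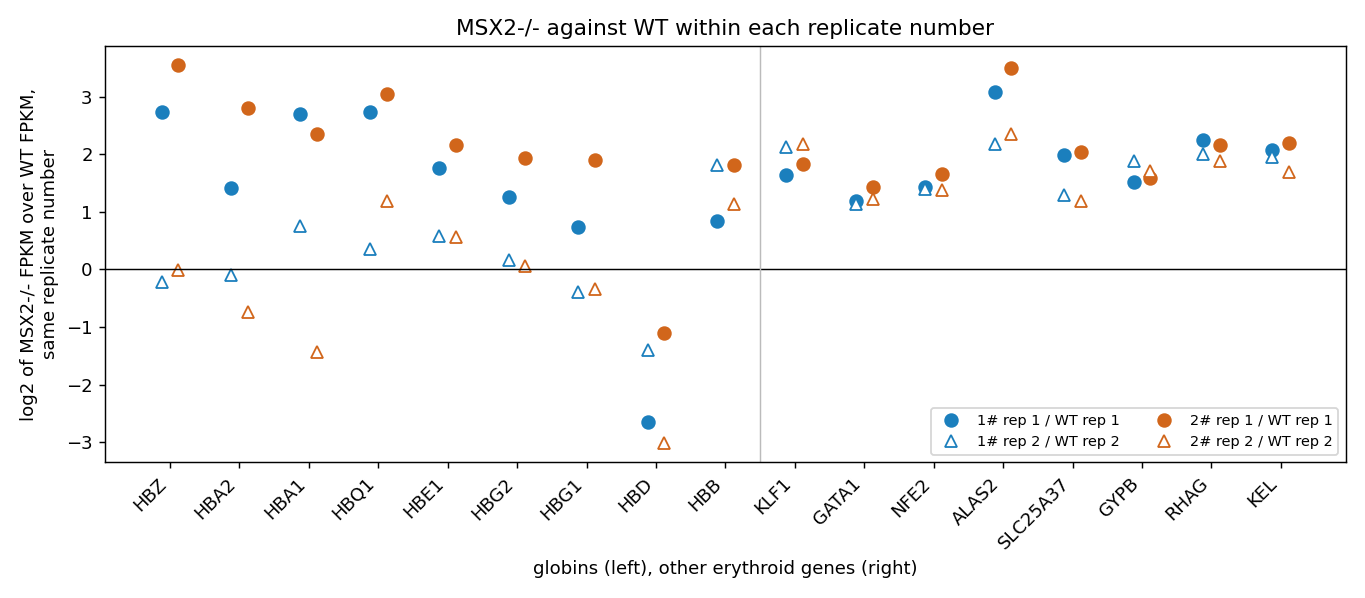
Log2 of the FPKM of each MSX2-/- library over the WT library with the same number, for 9 globins (left of the line) and 8 other erythroid genes (right), with clone 1# in blue and 2# in orange, circles for replicate 1 and open triangles for replicate 2. For 7 globins, all but HBD and HBB, the triangle of each clone lies under its circle. The same holds for GATA1, NFE2, ALAS2, SLC25A37, RHAG and KEL, whereas for KLF1 and GYPB the triangles lie above the circles. The 8 erythroid genes were picked from listed genes called higher in MSX2-/- without or with the replicate block. They do not stand for their whole lists, in which GYPC, for one, lay below WT in each MSX2-/- library.

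The shares of HBE1, HBG2, HBD, HBG1 and HBQ1 in the globin signal lay on the same side of WT in both replicate numbers. Those of the other globins tested, and of all alpha-like genes together, did not. HBE1 held 34.1 and 30.5% of the summed globin FPKM in WT replicates 1 and 2, 41.4 and 37.9% in clone 1#, and 36.6 and 38.3% in clone 2#. HBG2 held 48.2 and 46.6% in WT, 41.3 and 43.6% in clone 1#, and 44.0 and 41.6% in clone 2#. The groups did not overlap for either gene, with 6.28 percentage points more HBE1 and 4.74 fewer HBG2 in MSX2-/-. The ratio of HBE1 to HBG2, which no other globin enters, was 0.708 and 0.655 in WT, 1.004 and 0.869 in clone 1#, and 0.831 and 0.923 in clone 2#. Within the beta-like genes, HBE1 held 37.0 and 37.8% in WT and 44.2 to 49.3% in MSX2-/-. HBG2 held 52.2 and 57.7% of them in WT and 49.1 to 53.2% in MSX2-/-, and HBG1 held 0.536 and 0.883% in WT and 0.352 to 0.593%. For both gamma genes the groups overlapped there, so their separation depends on the total used.

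HBD held 8.61 and 2.66% of the globin signal in WT and 0.281 to 0.965% in MSX2-/-, again without overlap, and HBG1 held 0.495 and 0.713% in WT and 0.296 to 0.482% in MSX2-/-. The other 5 shares tested overlapped between the groups. HBZ, for one, held 3.84 and 10.4% in WT and 7.42 to 10.8% in MSX2-/-. All alpha-like genes together held 7.74 and 19.3% in WT and 15.9 to 18.7% in MSX2-/-. The smallest and the largest alpha-like share were thus both in WT libraries. An exact two-sided permutation test of 2 against 4 libraries has 15 splits and cannot give a p under 0.0667. In this exact test HBE1, HBG2, HBD and HBG1 reached the smallest p (0.15 adjusted over the 9 shares tested), and the other shares had p = 0.533 to 0.667. The shares sum to a fixed total, so a fall in 1 gene raises the others.

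**Figure D4:**
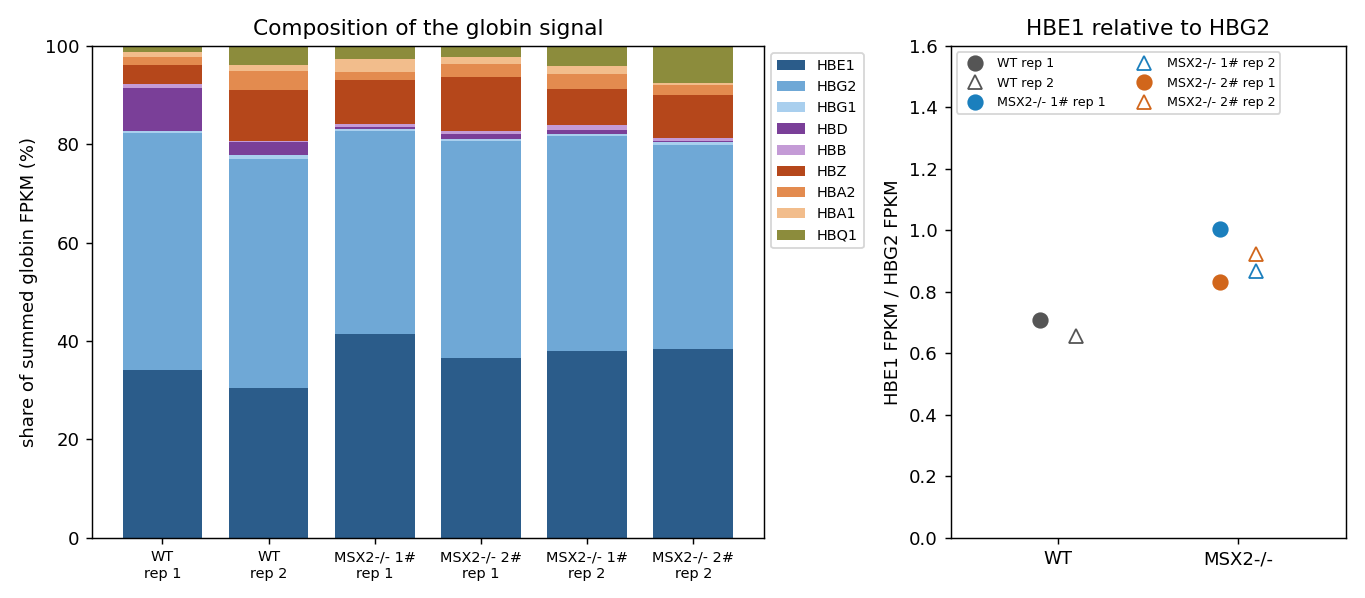
Share of each globin in the summed globin FPKM (%), stacked per library (left), and the ratio of HBE1 to HBG2 FPKM per library (right, WT grey, clone 1# blue, clone 2# orange, circles replicate 1, triangles replicate 2). The dark blue HBE1 block is 30.5 to 34.1% high in WT and 36.6 to 41.4% in MSX2-/-, the purple HBD block is visible mainly in WT, and the ratio is 0.655 to 0.708 in WT and 0.831 to 1.004 in MSX2-/-.

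Genes that act on globin genes or go with them in red cells were read from lists in the same fits. Of all genes tested, 1.28% were called there without the block and 9.85% with it. Of 32 regulators, 31 were tested, and 4 rose without the block and none fell. They were KLF1, the activator of red cell genes (log2 difference 1.85 ± 0.28 SE, adjusted p = 0.0394), GATA1 (1.15, 0.022), GATA2 (1.28, 0.0152) and NFE2 (1.40, 0.011). The block added TAL1, MYB and LIN28A, for 7 in all. KLF1 had 9.78 and 12.3 FPKM in WT, 30.4 and 53.3 in clone 1#, and 34.8 and 55.8 in clone 2#. It was thus above WT in both replicate numbers, and in replicate 2, where most globins were not, it was 4.34- and 4.55-fold above. BCL11A, SOX6 and ZBTB7A, which are known to hold back fetal or embryonic genes, were not called without or with the block. BCL11A had 0.828 and 0.676 FPKM in WT, 2.26 and 0.982 in clone 1#, and 2.22 and 0.553 in clone 2#. In replicate 1 it was thus 2.73- and 2.68-fold above WT. SOX6 overlapped between the groups, and ZBTB7A had 13.2 to 15.1 FPKM in all 6 libraries.

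Of 19 genes of heme and iron supply and of the alpha chain's chaperone, 17 were tested, and without the block 1 rose. It was ALAS2, the red cell form of the first enzyme of heme synthesis, with 7.48 and 9.28 FPKM in WT, 63.4 and 42.2 in clone 1#, and 84.8 and 47.3 in clone 2# (log2 difference 2.64 ± 0.29 SE, adjusted p = 0.0152). With the block 5 rose, ALAS2, UROD, CPOX, SLC25A37 and BLVRB. SLC25A37, which brings iron into mitochondria, had 13.3 and 12.2 FPKM in WT, 52.5 and 29.8 in clone 1#, and 54.7 and 28.0 in clone 2#. AHSP, the chaperone of free alpha chains, was listed at 0 in all 6 libraries. Both ALAS2 and SLC25A37 were higher in replicate 1 than in replicate 2 within each MSX2-/- clone, as the main globins were, yet stayed at least 2.29-fold above WT in replicate 2.

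Of 11 red cell membrane genes, 9 were tested, and 4 rose without the block, GYPB, GYPE, RHAG and KEL, and 7 with it. None was called lower, but GYPC lay below both WT libraries in every MSX2-/- library. It had 81.7 and 83.7 FPKM in WT and 60.1 to 75.2 FPKM in MSX2-/-. RHAG, of the Rh complex, had 7.45 and 8.87 FPKM in WT, 35.4 and 35.4 in clone 1#, and 33.2 and 32.7 in clone 2# (log2 difference 1.94 ± 0.13 SE, adjusted p = 0.00535). GYPB, a glycophorin gene, had 15.6 and 12.6 FPKM in WT and 41.2 to 47.1 FPKM in MSX2-/-. RHAG and GYPB thus separated the groups in both replicate numbers. The median log2 difference of the 9 membrane genes tested was 0.88 within replicate 1 and 1.03 within replicate 2. For the 9 globins tested it was 1.65 and -0.054, and over all genes tested 0.009 and 0.006. The interaction was called for none of the tested genes of these 3 lists and for no globin. Whether globins and these lists differ in it was not tested.

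Next to the clusters, 9 of 20 neighbour genes found in the table were tested and none was called without the block. NPRL3, whose introns hold the enhancer of the alpha cluster, had 15.9 and 15.2 FPKM in WT and 14.0 to 17.6 FPKM in MSX2-/-. HBBP1, the beta pseudogene between HBG1 and HBD, had 1.63 and 0.748 FPKM in WT and 0 to 1.46 FPKM in MSX2-/-. With the block, MPG and RHBDF1 rose and SNRNP25 fell, by 0.43 to 0.47 on the log2 scale. Of the globins that do not belong to hemoglobin, CYGB was tested, with 3.94 and 1.14 FPKM in WT and 2.72 to 5.43 FPKM in MSX2-/-, and was not called.

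Markers of other cells moved with the groups too. Of 8 endothelial markers, all tested, CDH5 fell without the block and 5 fell with it, and their summed level was 2008 to 2254 FPKM in WT and 1376 to 1765 FPKM in MSX2-/-. Of 5 blood progenitor markers tested, GFI1 rose without the block and all 5 with it, and the sum of the 6 listed was 46.1 to 77.0 FPKM in WT and 107 to 170 FPKM in MSX2-/-. Of 6 mesenchymal markers, COL1A1 rose without the block and 3 with it, and the sum was 119 to 156 FPKM in WT and 281 to 324 FPKM in MSX2-/-. Their part in the globin values was not tested. Single markers differed from their sums. COL1A1, with 27.7 and 55.9 FPKM in WT and 193 to 206 FPKM in MSX2-/-, made up most of the mesenchymal sum in MSX2-/-. COL3A1 had 33.0 and 51.1 FPKM in WT and 17.4 to 48.8 FPKM in MSX2-/-, and was not called without or with the block. In the mesenchymal list, LUM had 0.464 and 0.5 FPKM in WT, 2.41 and 0.644 in clone 1#, and 4.28 and 0.646 in clone 2#, also high in the replicate 1 libraries of MSX2-/-.

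Genes whose levels went most with the summed globins were found over the 9542 genes that averaged 5 FPKM or more. The Pearson r over the 6 libraries, which share their sets and rest mainly on the 2 high libraries, was 0.997 for AC004080.1, 0.993 for LOXL1, 0.990 for SHROOM4, 0.990 for IGFBP3, 0.988 for PRKCZ, and 0.986 for SCARF2, MICAL1 and NDRG4. IGFBP3, for instance, had 9.90 and 8.83 FPKM in WT, 44.0 and 9.997 in clone 1#, and 77.2 and 7.13 in clone 2#. In deviations from the mean of each replicate number, the 8 leading genes were NEK6, PTRHD1, DLL3, ITFG1, PLOD3, AC004080.1, ATL3 and CLDN6, with r of 0.993 to 0.999. No red cell gene of the lists was among either 8. For MSX2 the r was 0.933 over levels and 0.911 over deviations. Of the listed genes, BLVRB (0.964), EIF2AK1 (0.960) and FAM234A (0.957) had a higher r over levels. ESAM (-0.960), UROS (-0.950) and SNRNP25 (-0.941) went the other way. These are descriptions with 6 points and no test.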

How the data were processed

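RNA was sequenced from 6 libraries of H1-derived cells. The authors deposited FPKM values, with rows named by symbol and 1 column per library, without pooling replicates. Per the labels, BWA with ANOVA and TopHat with Cufflinks were run, and the submitters' processing notes list BWA, Bowtie, RSEM and hg19. Which of these made the FPKM values, the annotation and the use of strand are not given in the sources used here, so overlapping and read-through genes cannot be told apart. There were 58364 rows of values and 1 row of headings, left out. The rows held 56595 different symbols, of which 342 stood on several rows, and each row was fitted and counted as a gene. Columns were matched to groups, clones and replicate numbers by their names, which number the clones differently from the sample titles.

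Values were fitted as log2(FPKM + 1) for 15895 genes that averaged 0.5 FPKM or more, in limma 3.58.1 (R 4.3.3) with its trend option, and p-values were adjusted over all genes tested after Benjamini and Hochberg. The call was an adjusted p under 0.05. FPKM carries no read number, so no counting interval is given, and an FPKM fold on the log2(FPKM + 1) scale is understated for low genes. The main fit had group as its term. The replicate number as a block was its alternative. Across genes, the differences between replicates 2 and 1 correlated at 0.51 (WT with 1#), 0.54 (WT with 2#) and 0.64 (1# with 2#), and the labels give each number a shared letter, so blocked values are printed beside results. The fits were tested on simulated data. Shares were compared by exact permutation. Sequences and GRCh38 positions came from GENCODE v29, whose build differs from hg19, so positions are not those of the deposited table.

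Named genes are all 10 globins and, of the lists of regulators, hemoglobin partners, membrane genes, other globins, neighbours and cell markers, members called with or without the block and defining members a statement turns on. The globins, lists and tests were chosen with earlier results of these data known. Fits within replicate numbers and their interaction were added after values were seen. The lists of megakaryocyte, macrophage and granulocyte, pluripotent and hepatic markers had 0 calls without the block, and GP1BA (adjusted p = 0.015) and LIN28A (0.0143) rose with it. Results that need a withheld item are not reported here, and list counts leave it out.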

Additional observations from a re-analysis of the deposited data

Results flagged for a closer look

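For HBZ, HBA2 and HBG1, both MSX2-/- libraries were above WT in replicate 1 and both were below it in replicate 2. The effect in replicate 2 minus that in replicate 1, on the log2(FPKM + 1) scale, was -2.97 for HBZ (limma interaction, adjusted p = 0.314), -1.95 for HBA2 (0.457) and -0.76 for HBG1 (0.573). None passed the test of the difference, and HBA2 and HBG1 share most of their coding sequence with HBA1 and HBG2.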

How the results depend on the processing

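Over 14 alternatives each (replicate block, pseudocount 0.1, no filter, both together, 3 groups, rescaled libraries, each clone alone and each library left out), the 9 globin estimates of MSX2-/- against WT kept their sign in all 126 values, and none passed the threshold. The replicate block, the missing filter, both together and the 3 groups leave each estimate unchanged by design, so their signs were fixed in advance. The 126 values do not include the fits within replicate numbers. Of all genes, 204 were called, 1566 with the replicate block, 98 with no filter, 6 with 3 groups and 19 to 82 with a library left out. Leaving out any 1 library cut the count by over 1.5 times. Within replicate numbers, fits added after values were seen, 720 genes and 3 globins were called in replicate 1 and 663 genes and 0 globins in replicate 2. There the estimates of HBZ (-0.10), HBA2 (-0.30), HBA1 (-0.054) and HBG1 (-0.12) turned negative. The replicate block with a pseudocount of 0.1 called 1 globin, HBE1. The 5 globins lower in replicate 2 became 0 with no filter and 1 to 4 with a library left out (3 without clone 1# replicate 1, 2 without clone 1# replicate 2 or clone 2# replicate 1, 1 without clone 2# replicate 2). The ratio of summed globins, 2.502, ran from 1.75 (without clone 2# replicate 1) to 3.003 with a library left out, and was 3.49 within replicate 1 and 1.19 within replicate 2. The difference in share ran from 4.48 to 8.08 percentage points for HBE1, from -5.56 to -3.92 for HBG2 and from -7.97 to -2.01 for HBD (without WT replicate 1). For HBZ it ran from -1.35 (without WT replicate 1) to 5.19. The causes were not tested. Read numbers, and so the precision of globins under 2 FPKM, are unknown.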
